A study of Mus musculus with 3 samples.

Results

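The suppressor of cytokine signalling (SOCS) family was measured in mouse macrophages that had met Lipid A a second time. The family comprises the genes Socs1 to Socs7 and Cish, chosen by name, and these 8 genes were all found among the 55536 annotated genes of the deposited tables. The cells were primary macrophages grown from bone marrow of the inbred mouse strain C57BL/6J. RNA came from their cytosolic fraction, ribosomal RNA was removed and the rest was sequenced as total RNA. Lipid A, the TLR4-activating part of lipopolysaccharide, mimics contact with Gram-negative bacteria. All cells were pre-treated with Lipid A at 100 ng/ml for 12 h, kept for 12 h after washout and then given Lipid A at 100 ng/ml for 20 min. There was 1 group of 3 libraries, with no untreated or singly treated group analysed here, so each value is a level after the second exposure and not a response to it. The labels call the libraries biological replicates 1, 2 and 3 but give all of them the same donor identifier, and age and sex were not collected. Each SD is thus a spread over samples that may be partly technical, and the p-values set differences between libraries against counting noise only.

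SOCS proteins close a feedback loop on cytokine receptors. A cytokine activates receptor-bound JAK kinases, these phosphorylate STAT transcription factors, and the STATs switch on a subset of the SOCS genes. The SOCS proteins carry an SH2 domain that binds phosphotyrosine and a SOCS box that recruits elongins B and C and cullin 5, so that bound targets can be marked with ubiquitin. SOCS1 and SOCS3 also hold a short kinase inhibitory region that blocks JAK activity directly. In macrophages SOCS1 is known for restraining interferon signalling and SOCS3 for restraining signals through the IL-6 receptor chain gp130, and both are known to be induced after TLR4 activation.

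Expected counts on annotated genes totalled 32055937, 43616634 and 47864978 in replicates 1, 2 and 3. Levels are given as TPM, a relative abundance that corrects for transcript length and allows genes to be compared, as mean ± SD over the 3 libraries. Tests between libraries, and the counts of genes highest in each, use CPM, read counts relative to library size, after TMM scaling, because the median gene stood 1.12-fold higher in replicate 1 than in replicate 2 on the TPM scale. Values by library given in TPM carry this shift. Protein-coding genes held only 32.7%, 27.4% and 27.8% of all TPM in replicates 1, 2 and 3. Levels are therefore lower than on a scale of protein-coding genes only, where the mean was 47.1 for Socs6 and 1.07 for Cish. The macrophage identity of the samples was checked with 10 markers, all at 1 TPM or more throughout and at a median of 124 ± 9.21 TPM. The summed TPM of other lineages ran from 10.6 to 18.5 for 8 neutrophil markers, from 1.13 to 2.57 for 5 B cell markers, from 15.8 to 21.9 for 6 T and NK cell markers, from 0.18 to 0.37 for 6 erythroid and mast cell markers and from 0.75 to 1.62 for 5 stromal and endothelial markers. Of the neutrophil markers, S100a9 stood at 3.84, 5.56 and 9.97 TPM in replicates 1, 2 and 3, S100a8 at 3.78, 3.9 and 5.34 TPM and Mmp8 at 2.2, 2.41 and 1.76 TPM, while Ly6g had 0 counts. The part of neutrophils in the values below was not tested. Cd4, at 15.6 to 21.9 TPM, made up nearly the whole sum of the T and NK cell markers. RNAs known to stay in the nucleus differed between libraries, with a summed level of 651, 169 and 693 TPM in replicates 1, 2 and 3. Malat1 made up most of this sum, at 612, 156 and 637 TPM, and Neat1 stood at 24.8, 12.7 and 52.4 TPM. Xist (13.4, 0.66 and 3.42 TPM) and Kcnq1ot1 (0.21, 0.01 and 0.04 TPM) were instead highest in replicate 1. The part of nuclear RNA in the values below was not tested.

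Of the 8 SOCS genes, 6 reached 1 TPM in every library, against 17.2% of all annotated genes and 41.3% of protein-coding genes. Socs6 and Socs3 were the highest, at 13.6 ± 1.64 TPM and 13.5 ± 8.99 TPM (n = 3), followed by Socs4 at 5.89 ± 1.02 TPM. Socs1 (3.75 ± 1.79 TPM), Socs7 (3.31 ± 0.226 TPM) and Socs5 (3.08 ± 0.490 TPM) formed a lower group. Cish and Socs2 were the lowest pair, at 0.31 ± 0.115 TPM and 0.23 ± 0.0173 TPM. Among 22028 protein-coding genes ranked by mean TPM, Socs6 and Socs3 took ranks 3242 and 3262, Socs4 rank 5628, Socs1 rank 6917, Socs7 rank 7229, Socs5 rank 7395, Cish rank 10492 and Socs2 rank 10725. Every member passed the filter on low counts. Because these are bulk samples, a lower level in fewer cells and a lower level per cell cannot be told apart.

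**Figure D1:**
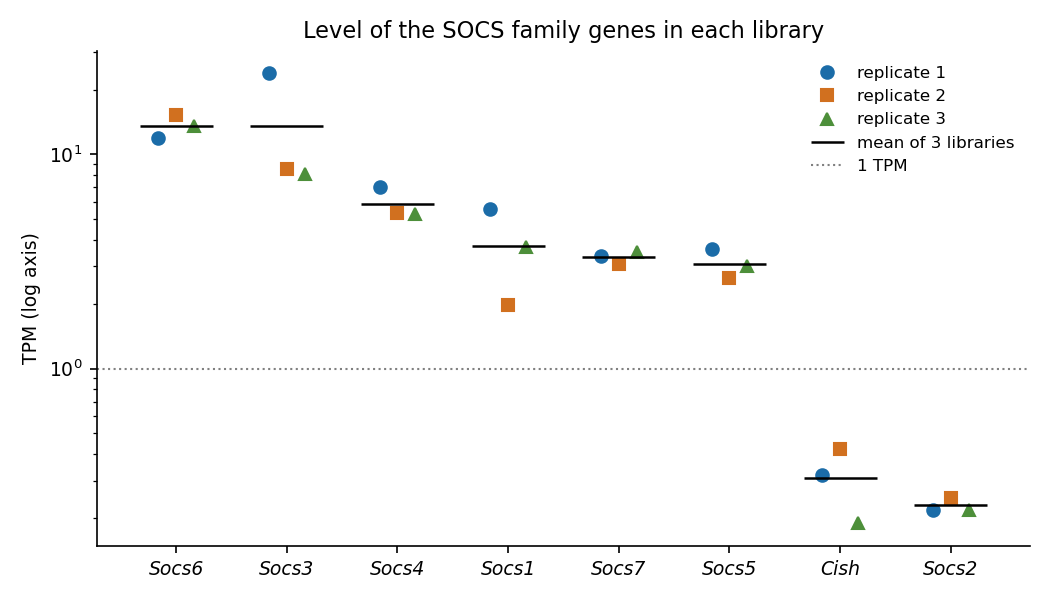
Level of the 8 SOCS family genes in each library (points, TPM on a log axis) with the mean of the 3 libraries (bars), in order of mean level. Socs6 and Socs3 share the highest mean but Socs3 rests on 23.88 TPM in replicate 1, and Cish and Socs2 lie below the dotted line at 1 TPM in every library.

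The order of levels was only partly resolved. Neighbours in the order were compared within each library as a difference of log2(TPM + 1), and a pair was counted as separated when the difference had the same sign in all 3 libraries and its mean was larger than its SD. By this rule 3 of 7 neighbouring pairs were separated. Socs3 lay above Socs4 by 0.92 ± 0.61 (SD, n = 3), Socs4 above Socs1 by 0.60 ± 0.42 and Socs5 above Cish by 1.64 ± 0.24. The difference between Socs6 and Socs3 was 0.17 ± 0.96, with Socs3 higher in replicate 1 and Socs6 higher in replicates 2 and 3. Socs1 and Socs7 (0.07 ± 0.52), Socs7 and Socs5 (0.08 ± 0.14) and Cish and Socs2 (0.09 ± 0.11) also differed by less than their spread. No p-value is given for these pairs, since an exact sign-flip test over 3 libraries cannot go below 0.25.

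The members were also summed by the length of their proteins. SOCS1, SOCS2, SOCS3 and CISH are the shorter proteins, with 212, 198, 225 and 257 residues in the longest annotated form, while SOCS4, SOCS5, SOCS6 and SOCS7 have long N-terminal regions and 436, 536, 533 and 579 residues. The 4 genes for the longer proteins summed to 26.0, 26.3 and 25.4 TPM in replicates 1, 2 and 3, a spread of 0.444 TPM around 25.9. The 4 genes for the shorter proteins summed to 29.98, 11.2 and 12.2 TPM. Most of this sum was Socs3, at 23.88, 8.56 and 8.06 TPM. Nearly all the rest was Socs1, at 5.56, 1.98 and 3.7 TPM, while Cish and Socs2 added little. The sum of the shorter members was thus above that of the longer members in replicate 1 and below it in replicates 2 and 3. The ratio of shorter to longer was 1.15, 0.427 and 0.479. In the second deposited quantification of the same libraries the ratio was 0.971, 0.361 and 0.430. There the sum of the longer members was less even, at 14.4, 16.8 and 12.5 TPM (14.5 ± 2.15). The evenness was also lost in the first quantification with TPM over protein-coding genes only, where the sum was lowest in replicate 1. On that scale Socs6 stood at 36.5, 55.7 and 49.0 and Socs4 at 21.6, 19.4 and 19.1 in replicates 1, 2 and 3. Socs5 stood at 11.0, 9.65 and 10.8 and Socs7 at 10.3, 11.2 and 12.6. The division by protein length was described after the values had been seen and was not tested.

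Set against counting noise, 6 of the 8 members differed between the 3 libraries, where 71.1% of the 12372 genes tested did so (edgeR likelihood ratio test with dispersion 0, Benjamini-Hochberg adjusted p under 0.05). The share of members called, 6 of 8, was close to this background. The test compares these libraries with each other and not conditions. Socs3, Socs4 and Socs1 were called and highest in replicate 1, Socs6 and Cish were called and highest in replicate 2, and Socs7 was called and highest in replicate 3. Among all genes tested, 24.2% were called and highest in replicate 1, 24.5% in replicate 2 and 22.4% in replicate 3. The members differed more in size than in number of calls. The ratio of the highest to the lowest library, on TMM-scaled CPM, had a median of 1.26 over all genes tested (interquartile range 1.15 to 1.497), and the members ran from 1.04 for Socs5 to 2.76 for Socs3.

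**Figure D2:**
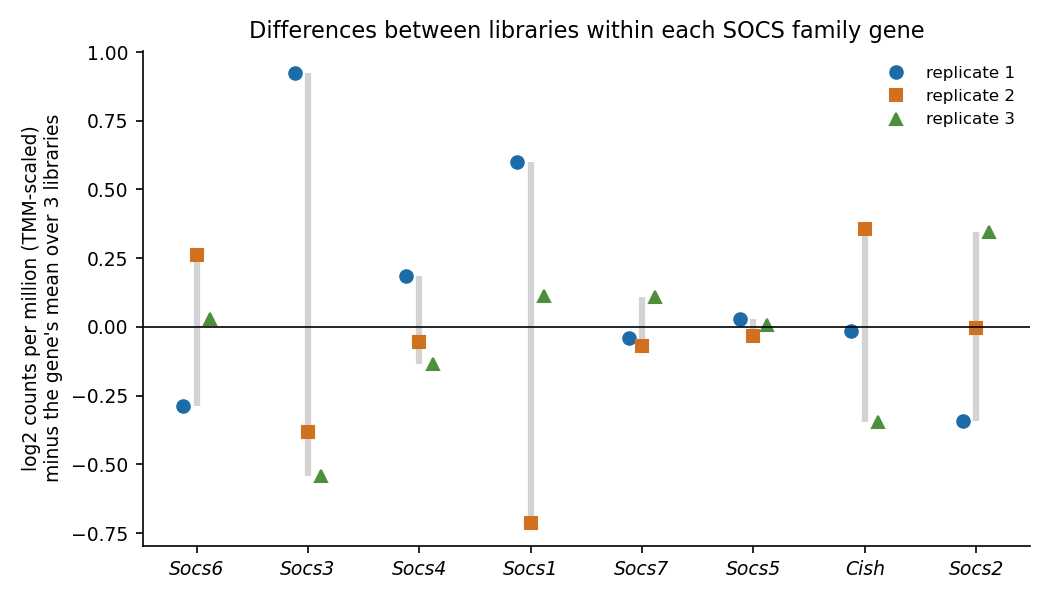
TMM-scaled CPM of each SOCS gene in each library on a log2 scale, as the deviation from the gene's own mean over the 3 libraries, with grey bars from the lowest to the highest. Socs3 and Socs1 span more than any other member, Socs3 with replicate 1 apart from the others and Socs1 with replicate 2 lowest, while Socs5 spans least.

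**Figure D3:**
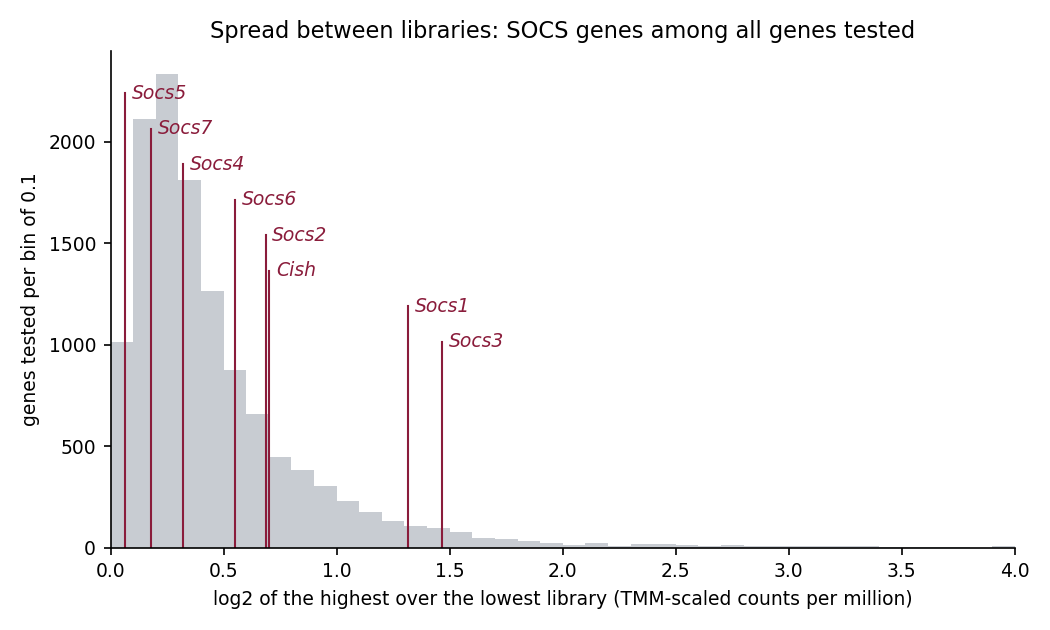
Number of genes tested (grey, 12372 genes) by the log2 ratio of the highest to the lowest library on TMM-scaled CPM, with each SOCS gene as a vertical line whose height carries no value. The last bin holds every gene at or beyond its lower edge, and Socs3 and Socs1 lie in the upper tail while Socs5, Socs7 and Socs4 lie below the median of 1.26-fold.

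Socs3 (ENSMUSG00000053113.3, mm10 chromosome 11, 117966079 to 117970047, minus strand) was the member that differed most between libraries. It stood at 23.88, 8.56 and 8.06 TPM in replicates 1, 2 and 3, on 2773, 1599 and 1562 expected counts. Replicate 1 was high and replicates 2 and 3 lay close together. On TMM-scaled CPM the values were 89.1, 36.1 and 32.3, a 2.76-fold range (edgeR against counting noise, adjusted p = 1.03e-280), which 457 of the 12372 genes tested equalled or exceeded. Replicate 1 decided the mean. Without it the mean was 8.31 TPM in place of 13.5 TPM, and the remaining libraries differed 1.12-fold (edgeR, adjusted p = 0.00443).

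Socs3 was searched for STAT-type and interferon-type motifs in its RefSeq promoter window (build GRCm38.p6), because STAT binding is the known route by which cytokines switch it on. The 250 bases before the RefSeq start are shown, with the match to the STAT-type motif TTCNNNGAA in capitals; the match begins 154 bases before that start.
Socs3, chr11:117969367-117969616, minus strand: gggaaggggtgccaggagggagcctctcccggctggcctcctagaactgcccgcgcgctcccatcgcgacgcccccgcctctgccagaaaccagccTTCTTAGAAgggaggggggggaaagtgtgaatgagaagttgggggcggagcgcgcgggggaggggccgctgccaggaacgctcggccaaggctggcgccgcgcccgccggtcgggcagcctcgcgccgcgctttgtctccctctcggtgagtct
The motif reads the same on both strands by construction, and 8.30% of 32851 RefSeq promoter windows of 300 bases (250 before and 50 after the start) hold it. A wider STAT-type form with 4 bases between TTC and GAA, held by 6.95% of windows, was not in the Socs3 window. Neither was the interferon-type motif, GAAA and GAAA with 2 bases between them, which was searched on both strands and is held by 3.44% of windows. Socs3-201, the transcript that carried the reads of this gene, starts 180 bases downstream of the RefSeq start in GENCODE M21, so the bases just before that start lie outside the window. Part of the window is annotated as an exon of the noncoding transcript Socs3-203. A match is a run of letters and not a measured binding site.

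By the likeness rule, the genes whose library pattern lay nearest to that of Socs3 were a TNF receptor adaptor and inflammatory mediators. Deviations of log2(TPM + 1) from each gene's own mean were compared over the 3 libraries, on the TPM scale, for 4242 genes with a mean of at least 10 TPM, and 5 genes lay within a distance of 0.1. Traf1, an adaptor of TNF receptor signalling, was nearest at a distance of 0.0451, with 18.72, 6.9 and 6.24 TPM. It was followed by the monocyte chemokine gene Ccl2 (distance 0.0808), with 228.58, 80.86 and 77.73 TPM. The chemokine gene Ccl4 (0.0868), the cytokine gene Il1b (0.0911) and the chemokine gene Ccl7 (0.0998) came next. All of them were highest in replicate 1, with replicates 2 and 3 close together, which follows from the rule that chose them. A likeness over 3 libraries is a description only.

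Socs1 (ENSMUSG00000038037.5, chromosome 16, 10782240 to 10785536, minus strand) showed the second-widest range among members. It stood at 5.56, 1.98 and 3.7 TPM, on 715, 409 and 792 expected counts. Replicate 1 was high, replicate 2 low and replicate 3 between them, unlike Socs3, where replicates 2 and 3 were level. The TMM-scaled CPM were 23.0, 9.23 and 16.4, a 2.49-fold range (edgeR against counting noise, adjusted p = 6.38e-50), which 620 genes tested equalled or exceeded. Without replicate 2 the range was 1.39-fold (edgeR, adjusted p = 9.67e-10). The nuclear RNAs were also lowest in replicate 2, and their part in the Socs1 values was not tested. The ratio of Socs3 to Socs1 in TPM was 4.29, 4.32 and 2.18 in replicates 1, 2 and 3.

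Socs1 is an interferon-induced gene, and its promoter window held the interferon-type motif. The Socs3 window did not hold it, but its RefSeq start lies 180 bases upstream of Socs3-201, so the windows do not cover like stretches. The 250 bases before the Socs1 start, which RefSeq and the GENCODE transcript Socs1-201 share, are shown with 2 overlapping matches to the interferon-type motif in capitals.
Socs1, chr16:10785537-10785786, minus strand: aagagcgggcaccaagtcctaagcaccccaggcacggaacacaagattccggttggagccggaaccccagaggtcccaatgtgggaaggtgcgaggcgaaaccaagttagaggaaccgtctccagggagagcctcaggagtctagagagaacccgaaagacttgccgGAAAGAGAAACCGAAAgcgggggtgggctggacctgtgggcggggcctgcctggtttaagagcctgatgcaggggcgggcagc
The matches, GAAAGAGAAA and GAAACCGAAA, begin 83 and 77 bases before the start and share 4 bases. No STAT-type match of either form was in the window. The Socs4 window held none of the 3 motifs. Windows were at hand for 4 of the 8 members, namely Socs1, Socs3, Socs4 and Cish.

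Cish (ENSMUSG00000032578.7, chromosome 9, 107296026 to 107302784, plus strand), a known STAT5 target that restrains IL-2, growth hormone and erythropoietin receptors, was barely read. It stood at 0.32, 0.42 and 0.19 TPM, on 38, 70 and 47 expected counts, with exact Poisson 95% intervals of 0.226 to 0.439, 0.327 to 0.531 and 0.140 to 0.253 TPM, which cover counting error only. The intervals of replicates 1 and 2 overlapped, as did those of replicates 1 and 3, and those of replicates 2 and 3 did not. They do not cover error in dividing reads among transcripts. In replicate 2 the short transcript Cish-203 was given 0.1 TPM on 1.48 expected counts, and in replicates 1 and 3 it had 0. The TMM-scaled CPM of 1.22, 1.58 and 0.971 gave a 1.63-fold range that passed the threshold narrowly (edgeR against counting noise, adjusted p = 0.0463). The call was lost with RLE size factors (edgeR, adjusted p = 0.0514), in the second quantification (0.0843), without replicate 2 (0.41) and without replicate 3 (0.313).

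The Cish promoter window held 2 STAT-type matches, both in the first bases after the RefSeq start. These 30 bases, which GENCODE M21 places in the 5′ untranslated region of Cish-201, are shown with both matches in capitals.
Cish, chr9:107296659-107296688, plus strand: TTCCTGGAAagTTCTTGGAAatctgtcaaa
TTCCTGGAA begins at base 1 and TTCTTGGAA at base 12, counted from the RefSeq start as 1. Cish-201 starts 633 bases further upstream in GENCODE M21. The pair of annotated Cish neighbours on the other strand, Gm17040 and Gm17041, had 0 counts in all libraries.

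Socs2 (ENSMUSG00000020027.18, chromosome 10, 95385362 to 95417180, minus strand), known for restraining growth hormone signalling, had the lowest mean in the first quantification, though Cish was lower in replicate 3. In the second quantification the order turned, with Socs2 at 0.171 ± 0.0160 TPM and Cish at 0.125 ± 0.0387 TPM. Socs2 stood at 0.22, 0.25 and 0.22 TPM, on 10, 18 and 25 expected counts. The Poisson 95% intervals of 0.105 to 0.405, 0.148 to 0.395 and 0.142 to 0.325 TPM all overlapped. Of this TPM, 60.5%, 47.2% and 41.6% came from the short transcript Socs2-208, on only 1.74, 2.62 and 2.08 expected counts. The level in TPM thus rests heavily on how few reads were divided, which the intervals do not cover. The TMM-scaled CPM of 0.321, 0.406 and 0.517 did not differ beyond counting noise (1.61-fold; edgeR, adjusted p = 0.454). In the second quantification they did (2.52-fold, highest in replicate 3; edgeR, adjusted p = 0.00285).

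Among the genes for the longer proteins, Socs6 (ENSMUSG00000056153.15), whose product binds receptor tyrosine kinases such as KIT, stood at 11.96, 15.24 and 13.6 TPM, on 2260, 4710 and 4379 expected counts. Replicate 2 was highest and replicate 1 lowest, the reverse of Socs1. The TMM-scaled CPM of 72.6, 106 and 90.5 spanned 1.46-fold (edgeR against counting noise, adjusted p = 4.10e-50). Socs6 made up 21.4%, 40.7% and 36.2% of the summed TPM of the family, and Socs3 42.7%, 22.9% and 21.5%. Socs3 was therefore the leading member in replicate 1 and Socs6 in replicates 2 and 3. The ratio of Socs3 to Socs6 was 2.00, 0.562 and 0.593.

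Socs4 (ENSMUSG00000048379.9, chromosome 14, 47276931 to 47296102, plus strand) and Socs5 (ENSMUSG00000037104.9, chromosome 17, 87107679 to 87137839, plus strand) encode related proteins known from EGF receptor signalling. Socs4 stood at 7.07, 5.31 and 5.29 TPM, with TMM-scaled CPM of 75.6, 64.0 and 60.5 (1.248-fold; edgeR, adjusted p = 1.88e-14). Replicate 1 was high, and without it the call was lost (1.06-fold; edgeR, adjusted p = 0.0671). Socs5 stood at 3.61, 2.64 and 3 TPM, which on TMM-scaled CPM became 18.2, 17.4 and 18.0. It was the most even member (1.04-fold; edgeR, adjusted p = 0.748), and only 387 of the 12372 genes tested had a ratio as small or smaller. Socs7 (ENSMUSG00000038485.5, chromosome 11, 97362551 to 97398542, plus strand), known from insulin signalling, stood at 3.37, 3.06 and 3.5 TPM, with TMM-scaled CPM of 33.3, 32.7 and 36.9. Replicate 3 was slightly higher than the others (1.13-fold; edgeR, adjusted p = 0.00167), and the call was lost without it (edgeR, adjusted p = 0.523).

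Most members were read from a single main transcript. Socs3-201 and Socs4-201 took 100% of their gene's abundance in every library. Socs7-201 took 88.8% ± 2.14 (SD, n = 3), Socs1-201 87.6% ± 2.25 and Socs5-201 72.2% ± 7.28. The rest of Socs1 was Socs1-202, which encodes the same 212 residues after a different 5′ end, and 25.5% ± 6.21 of Socs5 was the short transcript Socs5-203. The second quantification gave the same leading transcript for 7 of the 8 members, at 96.6% ± 2.39 for Socs3-201, 81.6% ± 1.42 for Socs1-201, 81.3% ± 1.16 for Socs7-201 and 63.5% ± 3.71 for Socs5-201.

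Socs6 was the exception. Its abundance was divided between Socs6-201 (41.3% ± 1.44), with a 3′ untranslated region of 4019 bases, and Socs6-203 (40.3% ± 2.67), with one of 693 bases. Socs6-202 took 12.5% ± 3.81, and all 3 encode the same 533 residues. These shares are corrected for transcript length and are not shares of reads. Socs6-201 had 1380, 3020 and 2746 expected counts in replicates 1, 2 and 3, and Socs6-203 had 577, 1303 and 1244. In the second quantification Socs6-203 led at 42.2% ± 3.94 and Socs6-201 took 25.9% ± 2.01, so which of them leads depends on the quantification. The reads of Cish and Socs2 were too few to divide. Cish-201 was given 20.8%, 34.3% and 77.3% in the first quantification and 84.8% ± 4.61 in the second.

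**Figure D4:**
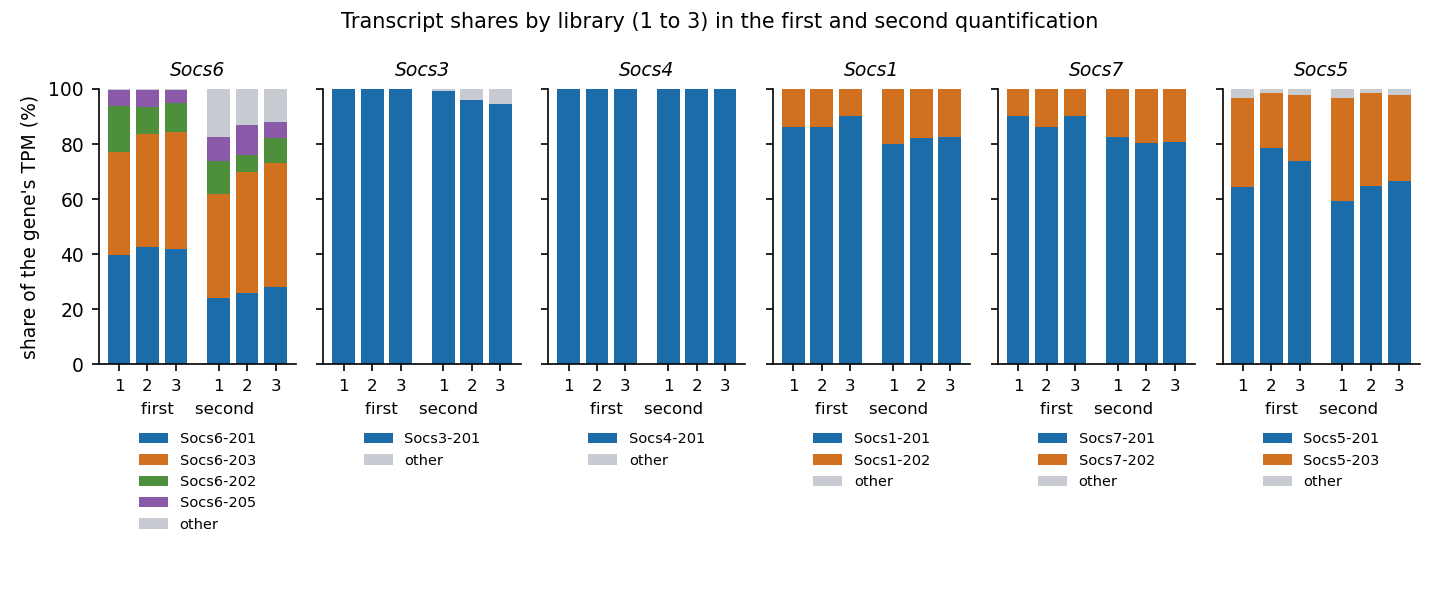
Share of each gene's TPM taken by its transcripts in replicates 1 to 3, in the first and second quantification, for the 6 SOCS genes at 1 TPM or more. Socs3 and Socs4 are nearly all 1 transcript in both, while for Socs6 the share of Socs6-201 shrinks from 41.3% to 25.9% in the second quantification.

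The 3′ untranslated regions of the members, where AU-rich motifs known from short-lived mRNAs can lie, were all longer than that of the median gene. In the longest annotated form they ran from 1087 bases for Cish to 5184 bases for Socs7, against a median of 934 bases over 21037 genes. The motif ATTTA occurred 4 times in Socs3, 17 times in Socs4, 10 times in Socs6 and not at all in Socs1, where 64.7% of genes held it at least once. The longer TATTTAT, which contains ATTTA, occurred 3 times in Cish, 2 times in Socs3 and 1 time each in Socs2, Socs4 and Socs5, and 27.4% of genes held it. These counts describe the sense strand of the annotation and grow with length.

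The pathway upstream of the SOCS genes was read more strongly at its receptors and kinases than at its ligands. Of 30 cytokines and hormones known to induce SOCS genes, 6 reached 1 TPM in every library. The background for this count, and for those of the lists that follow, is 41.3% of protein-coding genes. The highest were Ebi3, a subunit shared by IL-27 and IL-35 (79.0 ± 12.9 TPM), the growth factor Igf1 (49.8 ± 12.0 TPM) and Il15 (37.2 ± 17.9 TPM), and Lep was among 8 with 0 counts. Ebi3 is a subunit only, and Il27, named here for that reason, stood at 3.04 ± 1.80 TPM. All 10 ligand genes that passed the filter on low counts were called by the edgeR test against counting noise, 7 of them highest in replicate 1, where 71.1% of all genes tested were called and 24.2% were called and highest in replicate 1. These shares are also the background for the lists that follow. Il15 was high in replicate 1, at 57.78 TPM against 27.71 and 26.02 TPM in replicates 2 and 3. Named after their values had been seen, as known inducers of Socs3, Il10 stood at 13.88, 4.83 and 8.11 TPM, Il6 at 1.35, 0.44 and 0.15 TPM and Osm at 2.71, 4.23 and 3.65 TPM. Il10 and Il6 were highest in replicate 1, and Osm was lowest there.

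Receptor genes were widely present. Of 31 receptor chains, 23 (74.2%) were at 1 TPM or more in all libraries, and their list had a median of 17.4 ± 1.93 TPM. Il2rg, the common gamma chain, was highest at 127 ± 38.8 TPM, followed by the IL-10 receptor chain Il10rb at 108 ± 9.49 TPM and the interferon receptor chain Ifnar2 at 63.7 ± 4.89 TPM, while the prolactin receptor gene Prlr had 0 counts. Against counting noise 24 of 25 tested receptor genes were called by edgeR, 9 of them highest in replicate 1, 5 in replicate 2 and 10 in replicate 3.

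All 4 JAK kinase genes passed 1 TPM in each library. Jak1 stood at 36.2 ± 3.73 TPM, Jak2 at 24.0 ± 9.00 TPM, Tyk2 at 22.9 ± 5.89 TPM and Jak3 at 6.52 ± 0.590 TPM. Jak2 was high in replicate 1, at 34.15 TPM against 16.93 and 21.03 TPM in replicates 2 and 3. Of the 7 STAT genes, 6 did so. The interferon-activated factor Stat2 stood at 134 ± 40.0 TPM, the IL-4 factor Stat6 at 35.9 ± 3.71 TPM and the gp130 factor Stat3 at 26.9 ± 6.01 TPM. Stat5b (9.36 ± 1.11 TPM) and Stat5a (4.55 ± 0.773 TPM), which drive Cish in other cells, were lower, and Stat4 stood at 0.523 ± 0.0503 TPM. All JAK genes and 6 of 7 STAT genes were called by edgeR against counting noise, with 3 JAK and 5 STAT genes highest in replicate 1. Stat4 was not called (edgeR, adjusted p = 0.0884).

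Genes induced by STATs, other than the SOCS genes, were mostly abundant. Of 20 such genes, 18 were at 1 TPM or more throughout, and the median of the 20 was 40.3 ± 10.9 TPM. The acute-phase gene Saa3 was highest, at 6214.89, 2534.17 and 6091.17 TPM, followed by the interferon-inducible chemokine gene Cxcl10 at 860.97, 178.88 and 217.62 TPM and by Fgl2 at 532.07, 161.4 and 320.13 TPM, and Arg1 was lowest at 0.02 ± 0.02 TPM. All 19 tested members were called by edgeR, 15 of them highest in replicate 1, 1 in replicate 2 and 3 in replicate 3. Cxcl10 had replicate 1 apart from the others, as Socs3 had, and Fgl2 had replicate 2 lowest, as Socs1 had. Without replicate 1 the mean of Cxcl10 was 198 TPM in place of 419 TPM.

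The genes listed as ubiquitin ligase partners of SOCS box proteins were all present, 10 of 10 at 1 TPM or more in each library. Their median was 30.2 ± 2.88 TPM. The list holds Cul2 beside Cul5 and is not limited to partners that the SOCS proteins themselves need. Nedd8, the modifier that activates cullins, stood at 98.8 ± 6.30 TPM, elongin B (Elob) at 93.9 ± 21.4 TPM and the NEDD8-conjugating gene Ube2m at 49.5 ± 7.02 TPM, while the scaffold Cul5 was lowest at 6.61 ± 0.904 TPM. All 10 were called by edgeR against counting noise, 4 highest in replicate 1, 3 in replicate 2 and 3 in replicate 3. Of 27 other genes with a SOCS box, 12 (44.4%) reached 1 TPM in every library, close to the 41.3% of all protein-coding genes. They were led by Wsb2 (32.7 ± 1.00 TPM), Wsb1 (14.0 ± 5.33 TPM) and Spsb2 (13.3 ± 1.27 TPM), and Rab40b was among those with 0 counts.

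Other inhibitors of cytokine signals had a higher median level than the SOCS genes. All 11 were at 1 TPM or more throughout, and their median was 10.8 ± 1.15 TPM, against 3.68 ± 0.870 TPM for the 8 SOCS genes. The means of Socs6 (13.6 ± 1.64 TPM) and Socs3 (13.5 ± 8.99 TPM) lay above the median of the inhibitors. The phosphatase gene Ptpn6, which encodes SHP-1, stood at 117 ± 21.9 TPM, the interferon receptor inhibitor Usp18 at 158.84, 73.15 and 80.54 TPM and the phosphatase gene Ptprc, which encodes CD45, at 102 ± 25.2 TPM, while the STAT inhibitor Pias3 was lowest at 3.62 ± 0.306 TPM. Usp18 had replicate 1 high and the others close together, as Socs3 had. By edgeR against counting noise 6 of the 11 were called, 5 of them highest in replicate 1.

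**Figure D5:**
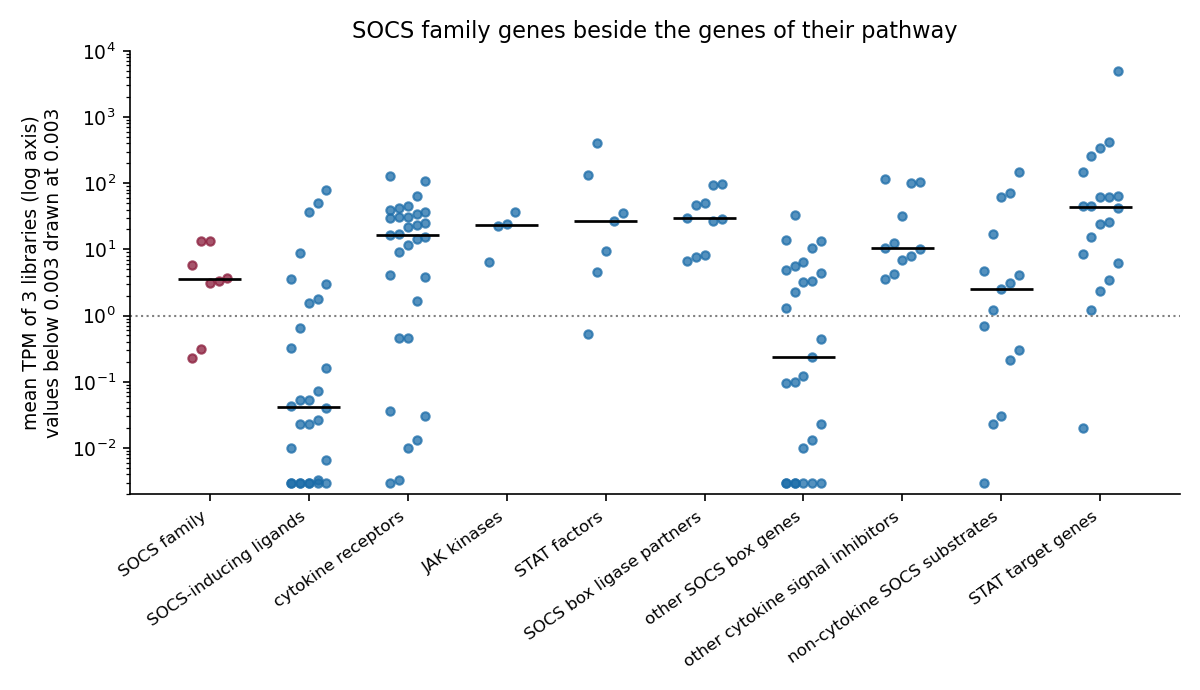
Mean TPM over the 3 libraries (log axis) of each gene in the SOCS family (red) and in 9 lists of genes of its pathway (blue), with the median of the plotted means as a bar and 1 TPM as a dotted line. The SOCS genes lie below the JAK, STAT and ligase partner genes in median and above the ligands, most of which lie under 1 TPM.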

How the data were processed

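The authors deposited, for each of the 3 libraries, a gene table with expected counts and TPM, a transcript table that also gives each transcript's percent of its gene, and a second transcript table with estimated counts and TPM, per the file headers. A note deposited beside them names mm10 and GENCODE M21. Values of the second table were summed per gene. Which programs and strand setting the authors used is not given in the sources used here.

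Members and the 16 pathway and marker lists were chosen with earlier results of these data known. Named are all members, the 3 highest and the 1 lowest gene of each pathway list by mean TPM, every JAK and STAT gene except an item that is not reported here, and the 5 genes nearest to the member with the largest SD of log2(TPM + 1). Markers and nuclear RNAs are given as lists, with some of their genes named.

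Of 81881 entries, 55536 are annotated genes, and the others, with 0.239% to 0.487% of expected counts, were left out. Expected counts were rounded to whole numbers. Those of the 8 members were whole as deposited, and genes overlapping a member had 0 counts. Libraries were compared with edgeR 4.0.16 in R 4.3.3 (TMM, filterByExpr, 1 coefficient per library, dispersion 0, likelihood ratio test, Benjamini-Hochberg adjustment over 12372 genes), since 1 library per level leaves no residual degrees of freedom for the quasi-likelihood test. In data simulated with counting noise only, as the test assumes, it was run on 12866 genes with changes in replicate 1. It found 54% of those changed 1.25-fold and 88% of those changed 1.5-fold. It found 96% of those changed 2-fold and 100% of those changed 4-fold, and called 8 unchanged genes. The low number of false calls follows from that setting and does not carry over to the real libraries. Depth limits the precision mainly of Cish and Socs2, whose intervals cover counting error only. Promoters came from RefSeq tables of GRCm38.p6, which hold 4 of the 8 members. Protein sequences were not used here. Other steps used Python 3.11.15, numpy 2.4.6, pandas 2.3.3 and scipy 1.17.1. Alternatives were the second quantification, other scalings, thresholds, pseudocounts and filters, and leaving out each replicate.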

Additional observations from a re-analysis of the deposited data

How the results depend on the processing

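No paired analysis was possible because there is 1 group. The count of members at 1 TPM in every library (6) was 5 to 6, that of separated neighbours (3) 3 to 4, that of members beyond counting noise (6) 4 to 6, the lowest without replicate 3, where Socs7 and Cish were lost, that of pathway genes at 1 TPM (98 of 154) 92 to 104 and that of members with the same leading transcript (8) 7 to 8. On CPM, the highest library of each called member was the same under every scaling and in both quantifications. In TPM of the second quantification Socs7 was highest in replicate 2, at 1.78, 1.80 and 1.69 in replicates 1, 2 and 3. The order of unseparated neighbours did turn. Cish lay below Socs2 (0.125 against 0.171 TPM) and Socs1 below Socs7 (1.72 against 1.76 TPM) in the second quantification, and Socs1 lay below Socs7 without replicate 1 (2.84 against 3.28 TPM). Socs3 lay above Socs6 without replicate 2 (15.97 against 12.78 TPM) and without replicate 3 (16.22 against 13.6 TPM). Mean levels moved by more than their SD in 15 of 48 cases, all in the second quantification or with TPM over protein-coding genes only, where the scale itself differs. On the second of these scales both quantifications can be set side by side, and their ratio was 1.23 ± 0.0229 for Socs6, 1.54 ± 0.418 for Socs2, 0.836 ± 0.166 for Cish and between 0.941 and 1.07 for the others. The highest library of Socs5, which was not called, changed with the scaling. Depth limits Cish and Socs2, where differences under about the width of their intervals could not be seen.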

Other observations

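Proteins outside the cytokine pathway that SOCS proteins are known to bind were also looked at. Of 15 such genes, 9 were at 1 TPM or more in each library, against 41.3% of protein-coding genes. The CSF-1 receptor gene Csf1r was highest at 148 ± 26.7 TPM, followed by Vav1, which relays antigen and integrin receptor signals, at 71.6 ± 10.04 TPM and the kinase gene Ptk2b at 62.6 ± 8.41 TPM. Irs1, the insulin receptor substrate, had 0 counts. By edgeR against counting noise 11 of 12 tested genes were called, 1 of them highest in replicate 1, 4 in replicate 2 and 6 in replicate 3, where 71.1% of all genes tested were called and 24.2%, 24.5% and 22.4% were called and highest in replicates 1, 2 and 3.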
